A study of Mus musculus with 9 samples.

Results

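The muscarinic acetylcholine receptors (Chrm1 to Chrm5) and the dopamine receptors (Drd1 to Drd5) were examined in the hippocampus of 9 N4 Ube3am-/p+ mice, 5 of which had received Ant-134 and 4 Scr. The 10 genes were taken by symbol from a count table of 54532 genes, and all 10 were found. They form 2 families of 5, which were selected on the measured difference between Ant-134 and Scr at Chrm1 and Drd5, since the study had listed both as raised in these same libraries. The differences between Ant-134 and Scr at these genes are therefore given as a description, without a test. That list held upregulated genes that were associated with epilepsy, as Chrm1 was, or were predicted targets of miR-134, as Drd5 was, so the sites of Drd5 were part of the choice as well. The levels of the receptors relative to each other, their gene models and the genes of their pathways were not used in it.

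Ant-134 is an antisense oligonucleotide (antimir) that blocks the microRNA miR-134, and the control, Scr, has a scrambled sequence. All mice, Scr controls included, carried the maternally inherited Ube3a mutation that models Angelman syndrome, on a 129Sv/Ev background reached by backcrossing. No wild-type and no unstimulated mice were in the comparison. Each mouse was injected with 0.5 nmol into a cerebral ventricle at postnatal day 21 and was exposed to a seizure-provoking sound at days 22, 24 and 26. The hippocampus was taken 24 h after the last exposure, and each library came from 1 mouse. The ratio of sexes was not recorded for these samples. Libraries were made from poly-A RNA of whole hippocampus, in which more RNA per cell and more cells of a type cannot be told apart.

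Muscarinic and dopamine receptors are G protein-coupled receptors of the cell membrane. The muscarinic receptors encoded by Chrm1, Chrm3 and Chrm5 couple to Gq proteins, which activate phospholipase C, and those encoded by Chrm2 and Chrm4 couple to Gi/o proteins, which inhibit adenylyl cyclase. The dopamine receptors encoded by Drd1 and Drd5 couple to Gs or Golf and raise cyclic AMP, whereas those encoded by Drd2, Drd3 and Drd4 couple to Gi/o. In the hippocampus both families receive transmitter from axons whose cell bodies lie elsewhere, the cholinergic ones in the septum and the dopaminergic ones in the midbrain and brainstem.

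The sequences of miR-134 and of its sites in the 3' UTRs of these receptors are shown because Ant-134 was directed against this microRNA. Mature miR-134 is encoded at chr12:109734145-109734166 on the plus strand of GRCm38 and is printed from RefSeq with its seed, bases 2 to 8, in capitals.
mmu-miR-134-5p: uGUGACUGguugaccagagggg
A site was a match to CAGTCAC, the complement of the seed, or to AGTCACA, the complement of bases 2 to 7 followed by A. Matches were read from the GENCODE M21 transcripts of GRCm38 in the transcript's sense, and the 8-base CAGTCACA holds both. In the lines that follow the matched bases are in capitals.
Drd5, chr5:38321602-38321608, plus strand: gctgggaggaggggCAGTCACctttgctt
Drd5, chr5:38321787-38321794, plus strand: tcttttttcttagtCAGTCACAccttcagg
Chrm1, chr19:8681122-8681128, plus strand: ttcttttcccaggaAGTCACAgaatactt
Drd1, chr13:54051779-54051785, minus strand: tgaatgagctgtaaAGTCACAggtcacag
Drd1, chr13:54051497-54051503, minus strand: ccatcagcatcactAGTCACAaatgctac
Drd5 held 2 sites, 1 of them the 8-base match, Chrm1 held 1 and Drd1 held 2. They were 3 of the 8 receptor genes with an annotated 3' UTR. For scale, 2973 of 15279 tested genes with a 3' UTR (19.5%) held a site in the longest one, and nothing is read from the 2 numbers because a predicted site put Drd5 on the study's list. The 3' UTR of Chrm1 was the longest of the 8 with 4272 bases, and those of Drd5 and Drd1 had 1416 and 1670 bases, against a median of 1164 over the tested genes. No match was found in the 3' UTRs of Chrm2, Chrm3, Drd2, Drd3 and Drd4. Outside the 3' UTRs, Drd2 held 1 match in its coding sequence and Chrm3 held 1 in a 5' UTR. The models of Chrm4 and Chrm5 hold no 3' UTR, so these genes could not be searched. A match is a description of these letters, and binding of miR-134 was not measured.

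The libraries held between 28583298 and 41978113 counts, and 3 counts, taken as the floor, corresponded to between 0.0709 and 0.107 CPM (counts scaled to the library total). Ube3a averaged 90.2 CPM in Ant-134 and 92.4 CPM in Scr (log2 fold change -0.03, SE 0.0539), and Mirg, a noncoding transcript of the imprinted cluster that holds miR-134, averaged 35.7 and 36.3 CPM. Markers of hippocampal pyramidal neurons summed to between 5690 and 6900 CPM in Ant-134 and between 5800 and 6720 CPM in Scr, and markers of dentate granule cells to between 396 and 437 and between 369 and 460 CPM. The 6 tested markers of striatal projection neurons, cells that express Drd1, Drd2 and Chrm4 strongly, summed to between 20.9 and 32.4 CPM over all 9 mice.

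Levels of the receptors were compared with each other as FPKM, which divides the counts by gene length, over all 9 mice. Chrm1 was the most abundant with a mean of 39.9 FPKM ± 1.89 (SD, n = 9) and made up 69.0% ± 1.56 of the muscarinic total. Chrm4, at 8.33 FPKM, and Chrm3, at 7.35 FPKM, made up 14.4% and 12.7%. Chrm5 and Chrm2 followed at 1.14 and 1.13 FPKM, each with about the same share, 1.98% and 1.96%. The muscarinic receptor RNA of these hippocampi was thus mostly that of 1 Gq-coupled receptor.

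Among the dopamine receptors Drd5 was the most abundant with 2.45 FPKM ± 0.315 (SD, n = 9), or 47.4% ± 4.79 of the family. Drd1, the other Gs-coupled receptor, reached 1.5 FPKM and 28.8%, and Drd2 reached 1.10 FPKM and 21.4%. Drd4, at 0.0743 FPKM, was near the limit of detection, and Drd3, at 0.0509 FPKM, was at it. Over the mice the share of Drd5 ranged from 40.7% to 53.7% and that of Drd1 from 20.5% to 41.2%.

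**Figure D1:**
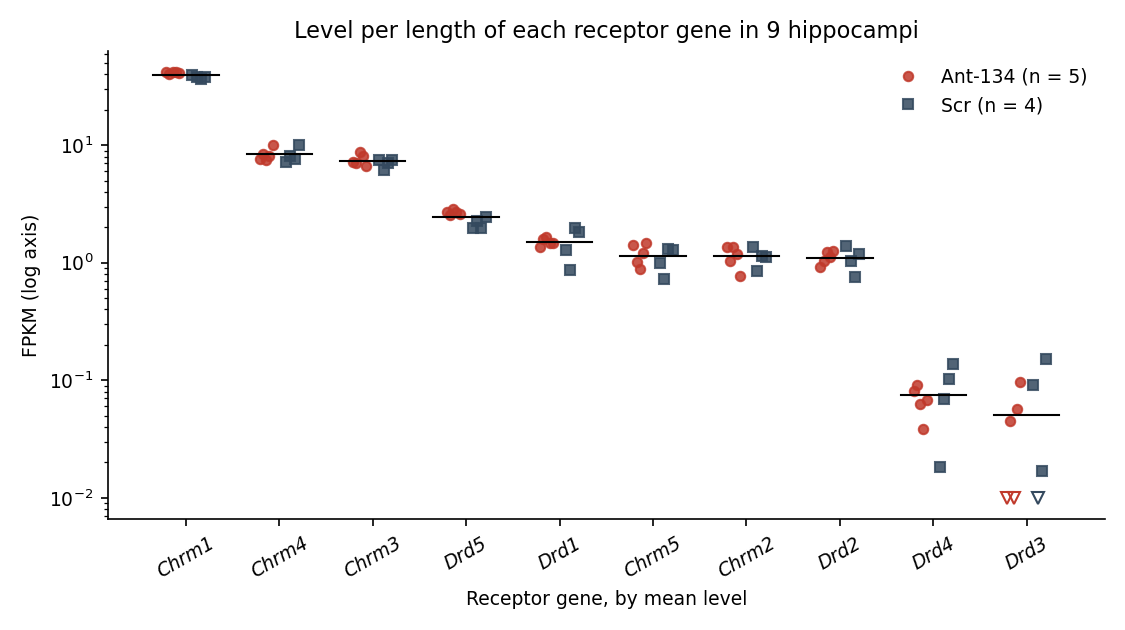
Level of each receptor gene as FPKM on a log axis, with 1 point per mouse (circles, Ant-134, n = 5; squares, Scr, n = 4), a line at the mean of the 9 mice, and open triangles at the bottom for mice listed at 0. Chrm1 lies above every other receptor with between 36.5 and 41.9 FPKM, and Drd3 and Drd4 lie below 1 FPKM in every mouse.

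Neighbours in the order of mean level were compared within each mouse on the log2(FPKM + 0.01) scale with a two-sided exact sign-flip permutation test, adjusted over the 9 neighbouring pairs, for which the smallest raw p possible was 0.00391. Of the 9 pairs, 5 differed. The step from Chrm1 to Chrm4 was 2.27 (exact permutation test, adjusted p = 0.0117), and that from Chrm3 to Drd5 was 1.58 (exact permutation test, adjusted p = 0.0117), each with the same direction in 9 of 9 mice. Drd5 exceeded Drd1 by 0.73 in 8 of 9 mice (exact permutation test, adjusted p = 0.0176), and Drd2 exceeded Drd4 by 3.83 in 9 of 9 mice (exact permutation test, adjusted p = 0.0117). The size of this last step depends on the pseudocount, since Drd4 is near the limit of detection, and it was 2.79 with a pseudocount of 0.1.

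Drd1 exceeded Chrm5 by 0.38 in 7 of 9 mice (exact permutation test, adjusted p = 0.0281). This step was not past the threshold when any 1 of 6 mice was left out, which were Ant-134 replicates 2 and 4 and Scr replicates 1, 2, 3 and 4 (exact permutation test, adjusted p = 0.0563 each). Chrm4 and Chrm3 differed by 0.18 with an SD of 0.27 (exact permutation test, adjusted p = 0.129), and without Ant-134 replicate 3 this step passed with a value of 0.23 (exact permutation test, adjusted p = 0.0469). The levels of Chrm5, Chrm2 and Drd2 could not be ordered, since the steps of 0.0085 and 0.034 were small beside SDs of 0.44 and 0.39 (exact permutation test, adjusted p = 0.945 each). Drd4 and Drd3 differed by 1.01 with an SD of 1.83 (exact permutation test, adjusted p = 0.166), and by 0.26 with a pseudocount of 0.1.

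The gene models bear on these levels. The models of Chrm4 and Chrm5 have 1440 and 1599 bases and hold coding sequence only, so reads from untranslated parts of their RNA were not counted, whereas the other models include untranslated regions. The coding sequence lies in 1 exon in all 5 muscarinic genes and in Drd1 and Drd5, and in 7, 8 and 4 exons in Drd2, Drd3 and Drd4. Drd5 (ENSMUSG00000039358, chr5:38319367-38322518) shares 1531 of its 3152 exon bases, 1232 of them coding, with the antisense gene Gm26560 on the opposite strand. Without a stated strand setting, reads of the shared part cannot be told apart, and Gm26560 was listed with between 9 and 17 counts per mouse. Computed over the 1621 unshared bases, as if no read of the shared part had been counted, Drd5 would reach 4.77 FPKM ± 0.612, which leaves it at the same place in the order. On these lengths, which were added after the overlaps had been seen, the step from Chrm3 to Drd5 would be 0.63 and that from Drd5 to Drd1 1.69, and Drd5 would make up 63.6% ± 4.48 of the family. Both miR-134 sites of Drd5 lie outside the shared part.

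The comparison of Ant-134 with Scr asked which transcripts differed between mice given the blocker of miR-134 and mice given the scrambled control. The study reported less severe sound-induced seizures after Ant-134, and a tendency towards better survival. The groups may thus have differed in seizure history as well as in oligonucleotide, and these cannot be told apart here. The level of miR-134 itself was not measured in these libraries. Differences are log2 fold changes of Ant-134 over Scr in edgeR, and 8 of the 10 receptors passed the filter on low counts. The 8 fitted values were all above 0, with a median of 0.0986 over the 5 muscarinic receptors and of 0.0361 over the 3 dopamine receptors that passed, beside a median of 0.0026 over all 19782 genes tested. Chrm1 and Drd5, on which the choice of the families rests, were the 2 receptors past the unadjusted threshold of 0.05 and the 2 whose groups did not overlap. Of all genes tested, 4.18% were past that threshold, 1.49% with higher and 2.69% with lower values in Ant-134, and 1.54% had groups that did not overlap, 0.647% with higher and 0.895% with lower values in Ant-134. No receptor was past the threshold with lower values. Nothing is read from these counts, because the choice of the families used this contrast. After Benjamini-Hochberg adjustment 0 of the 19782 genes passed in edgeR (0.00%), where 827 had passed before adjustment, and the smallest adjusted p of a receptor was 0.998. In DESeq2, 16 genes passed after adjustment and none of them was a receptor.

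**Figure D2:**
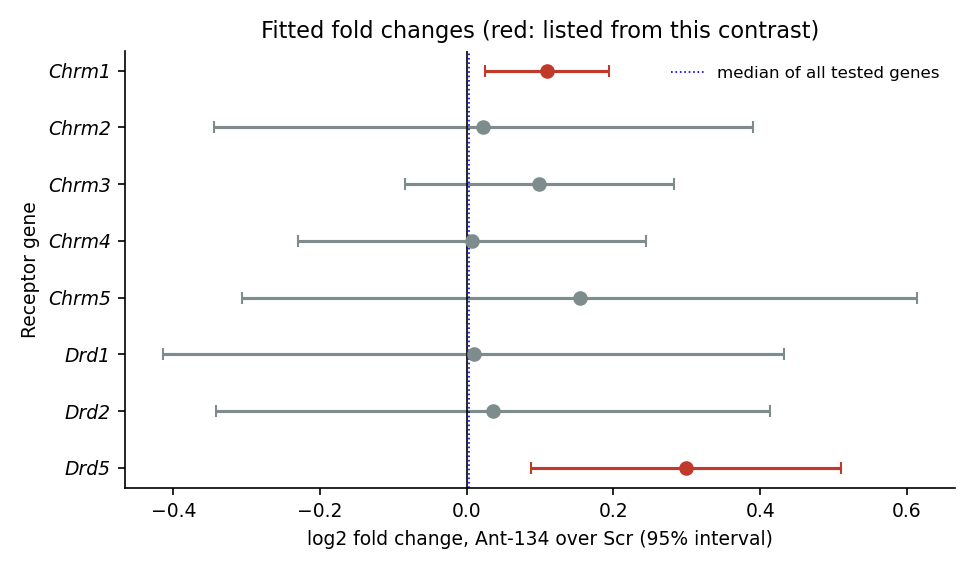
Fitted log2 fold change of Ant-134 over Scr for the 8 receptors that passed the filter, with 95% intervals, and a dotted line at the median of all tested genes. The 2 receptors drawn in red, Chrm1 and Drd5, were listed from this same contrast and have intervals above 0, and the intervals of the other 6 include 0.

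Chrm1 (ENSMUSG00000032773, chr19:8663789-8683587), the main muscarinic receptor of hippocampal pyramidal neurons, had 274, 264, 272, 275 and 267 CPM in the 5 Ant-134 mice and 260, 252, 240 and 251 CPM in the 4 Scr mice. Every Ant-134 mouse lay above every Scr mouse, and Scr replicate 3 was the lowest. The means were 270 ± 5.02 and 251 ± 8.34 CPM (SD), a fold of 1.08 (log2 fold change 0.11, SE 0.0395, 95% interval 0.025 to 0.19). The log2 fold change was 0.089 and no longer past the unadjusted threshold without Scr replicate 3. Of the 10 tested markers of pyramidal neurons, 9 had higher fitted values in Ant-134, with a median log2 fold change of 0.0864, and 0 were past the unadjusted threshold in edgeR. Of all 19782 genes tested, 10133 had higher fitted values, and 4.18% were past that threshold. The part of pyramidal neurons in the difference of Chrm1 was not tested. Chrm1 varied less over the 9 mice than any other receptor, with a coefficient of variation (CV) of 4.65%, where counting error alone gives 1.07%.

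Drd5, whose product is a high-affinity dopamine receptor that raises cyclic AMP, had 8.50, 8.14, 9.08, 8.55 and 8.31 CPM in Ant-134 and 6.30, 7.28, 6.25 and 7.82 CPM in Scr. The groups did not overlap, and the nearest mice were Ant-134 replicate 2 and Scr replicate 4. The means were 8.51 ± 0.355 and 6.91 ± 0.77 CPM, a fold of 1.23 (log2 fold change 0.30, SE 0.0989, 95% interval 0.088 to 0.51). These values rest on 251 to 313 counts per library in Ant-134 and 201 to 308 in Scr. The antisense gene Gm26560 had a log2 fold change of -0.12 with an SE of 0.303. In the 18 alternative fits the log2 fold change ranged from 0.22 on the log2(FPKM + 1) scale to 0.36 without Scr replicate 4.

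In DESeq2, the tool of the study, Chrm1 and Drd5 had unadjusted p values of 0.00212 and 0.00362. These values describe how the 2 receptors came to be listed. They are no test of a difference, because the choice of the families rested on this contrast.

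The other Gq-coupled muscarinic receptors overlapped between groups. Chrm3, which is expressed in many neurons and glands, had 45.0, 44.4, 55.8, 51.6 and 42.0 CPM in Ant-134 and 46.9, 39.1, 44.9 and 47.6 CPM in Scr. Ant-134 replicates 3 and 4 were above all Scr mice and the other 3 were among them. The log2 fold change of Chrm3 was 0.0986 (SE 0.0849, 95% interval -0.085 to 0.28), and 0.037 without Ant-134 replicate 3. Chrm5, best known from midbrain dopamine neurons, had 2.29, 1.64, 1.42, 1.96 and 2.35 CPM in Ant-134 and 1.6, 1.18, 2.14 and 2.05 CPM in Scr. Its interval was wide, with a log2 fold change of 0.15 (SE 0.215, 95% interval -0.31 to 0.61). Between 40 and 75 counts lay behind each Chrm5 value.

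The Gi/o-coupled muscarinic receptors had nearly the same means in both groups. Chrm2, the receptor known for limiting acetylcholine release at cholinergic terminals, had 8.29, 6.29, 8.29, 7.24 and 4.70 CPM in Ant-134 and 8.37, 5.23, 7.01 and 6.85 CPM in Scr. The lowest and the highest mouse were Ant-134 replicate 5 and Scr replicate 1, and the log2 fold change was 0.02 (SE 0.171, 95% interval -0.34 to 0.39). Chrm4 had 11.2, 12.2, 10.9, 11.8 and 14.6 CPM in Ant-134 and 10.5, 11.9, 11.2 and 14.7 CPM in Scr. In each group 1 mouse stood above the others, Ant-134 replicate 5 and Scr replicate 4, and the log2 fold change was 0.0077 (SE 0.111, 95% interval -0.23 to 0.24). Intervals of this width include changes larger than that of Chrm1, so smaller changes of these receptors were not detectable with these replicates.

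**Figure D3:**
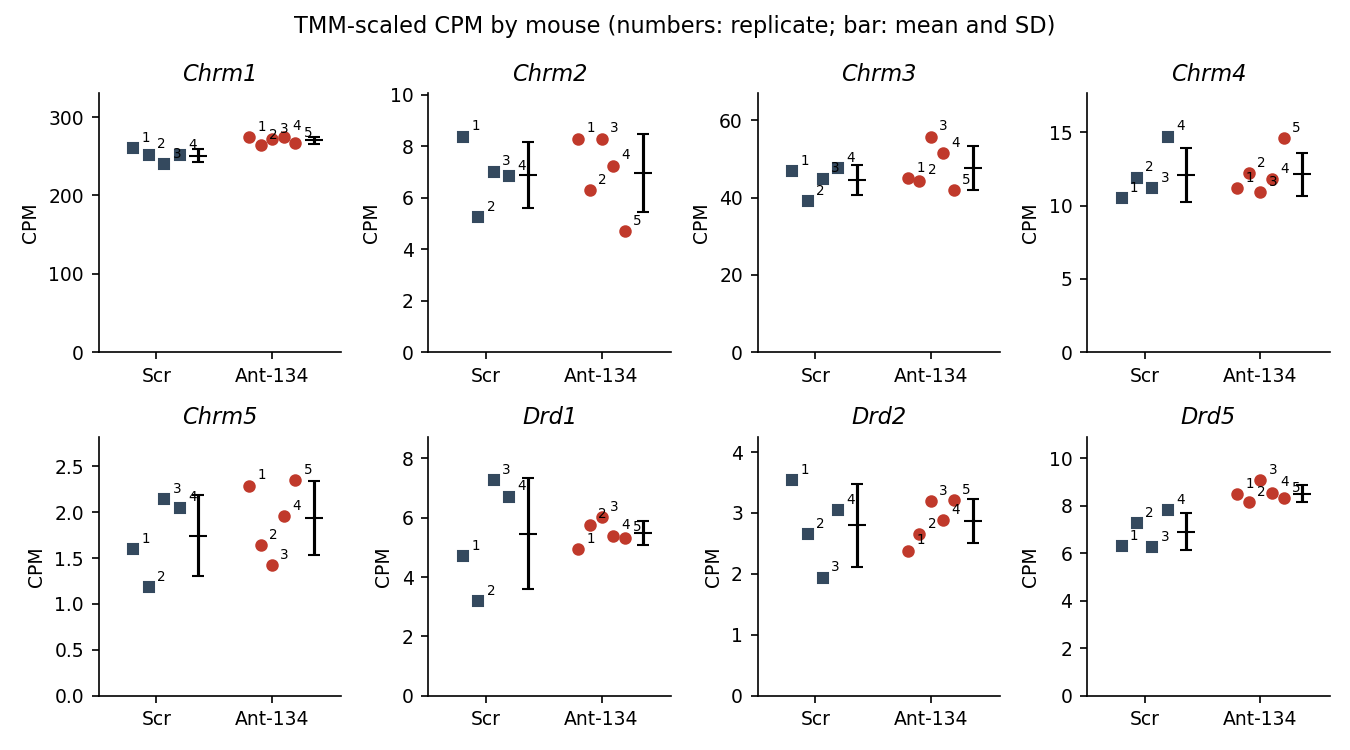
CPM of the 8 receptors that passed the filter in each mouse, with the replicate number beside the point and bars for the mean and SD of each group (squares, Scr, n = 4; circles, Ant-134, n = 5), on axes that start at 0. The groups separate for Chrm1 and Drd5 and overlap for the other 6, and Drd1 spreads from 3.19 to 7.27 CPM in Scr.

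Drd1, the Gs/olf-coupled receptor that partners Drd5, had 4.94, 5.77, 6.01, 5.40 and 5.33 CPM in Ant-134 and 4.70, 3.19, 7.27 and 6.71 CPM in Scr. All Ant-134 mice lay inside the range of the Scr mice, and the CV was 7.59% in Ant-134 and 34.3% in Scr. The log2 fold change was 0.0097 (SE 0.196, 95% interval -0.41 to 0.43), and it lay between -0.18 without Scr replicate 2 and 0.18 without Scr replicate 3. Drd1 carried 2 miR-134 sites, both matches to AGTCACA, whereas Drd5 held a match to CAGTCAC and the longer CAGTCACA. Chrm1, whose groups did not overlap either, held 1 match, also to AGTCACA. No difference of Drd1 between the groups could be resolved with these replicates, and its interval includes the log2 fold change of Drd5. The part of the sites in either value was not tested.

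Drd2, an autoreceptor on dopamine neurons that also serves as a postsynaptic receptor, had 2.38, 2.65, 3.2, 2.88 and 3.21 CPM in Ant-134 and 3.54, 2.65, 1.94 and 3.05 CPM in Scr. Scr held both the highest and the lowest mouse, and the log2 fold change was 0.04 (SE 0.177, 95% interval -0.34 to 0.41).

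Drd3 and Drd4 did not pass the filter. Drd3 was listed with 0, 3, 0, 3 and 5 counts in Ant-134 and 5, 0, 1 and 9 counts in Scr, and 3 of the 9 libraries were at 0. The ratio of its summed counts, scaled to library size, was 0.652 (exact 95% interval 0.271 to 1.52). Drd4 had 9, 12, 6, 4 and 7 counts in Ant-134 and 2, 10, 12 and 16 in Scr, with a ratio of 0.845 (exact 95% interval 0.527 to 1.35). Both intervals cover counting error only and include 1.

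The CV over the 9 mice was 19.2% for Chrm2, 10.7% for Chrm3, 12.8% for Chrm4 and for Drd5, 21.9% for Chrm5, 21.6% for Drd1 and 17.2% for Drd2, where counting error gives between 2.54% and 12.8% for these 7. These CVs include the difference between the groups, and within Ant-134 the CV of Drd5 was 4.17%, below the 6.19% of its counting error. With the group means removed, receptors were not seen to vary together. Of 28 pairs of receptors, 0 were correlated after adjustment (exact permutation test, smallest adjusted p = 0.468), 17 had a positive and 11 a negative Pearson's r, and r ranged from -0.676 for Chrm2 with Chrm4 to 0.751 for Chrm2 with Chrm3. This pairwise test was chosen after the data had been seen.

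The receptors were also set against the 6 tested striatal markers, because tissue of neighbouring regions can be taken with the hippocampus. The mean log2 CPM of these markers was highest in Scr replicate 3 with 2.19 and lay between 1.31 and 1.71 in the other 8 mice. By summed CPM this mouse stood out less, with 32.4 beside 29.5 in Ant-134 replicate 5. Ant-134 replicate 2 and Scr replicate 4 had 28.6 each. In Scr replicate 3 Drd1 was the highest of the 9, and Chrm1, Drd2 and Drd5 were the lowest. Over the 9 mice with the group means removed, Chrm1 was correlated with the markers with a Pearson's r of -0.859 (exact permutation test, p = 0.00354, adjusted over 8 receptors 0.0283) and a Spearman's rho of -0.70 (exact permutation test, p = 0.0433, adjusted 0.173). Without Scr replicates 3 and 1, the 2 mice farthest from the median of the markers, r was -0.478 (exact permutation test, p = 0.28), so the relation rests on these mice. With the group means left in, r was -0.598 over the 9 mice (exact permutation test, adjusted p = 0.233). The p values with group means removed are approximate, because the centred values of both groups were permuted together.

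The other 7 relations with the striatal markers were not past adjustment. Drd2 had an r of -0.721 (exact permutation test, adjusted p = 0.121), which was 0.163 without the same 2 mice. Drd1 had an r of 0.668 (exact permutation test, adjusted p = 0.122) and Chrm5 an r of 0.631 (exact permutation test, adjusted p = 0.122). Chrm4, a receptor of striatal projection neurons, had an r of 0.198, which was 0.803 without Scr replicate 3 (exact permutation test, adjusted p = 0.143) and 0.714 without the same 2 mice. Drd5 had an r of -0.256, which ran from -0.72 without Scr replicate 1 to 0.473 without Scr replicate 3. The part of neighbouring tissue in the differences between Ant-134 and Scr was not tested. Without Scr replicate 3 the log2 fold change was 0.089 for Chrm1 and 0.25 for Drd5.

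**Figure D4:**
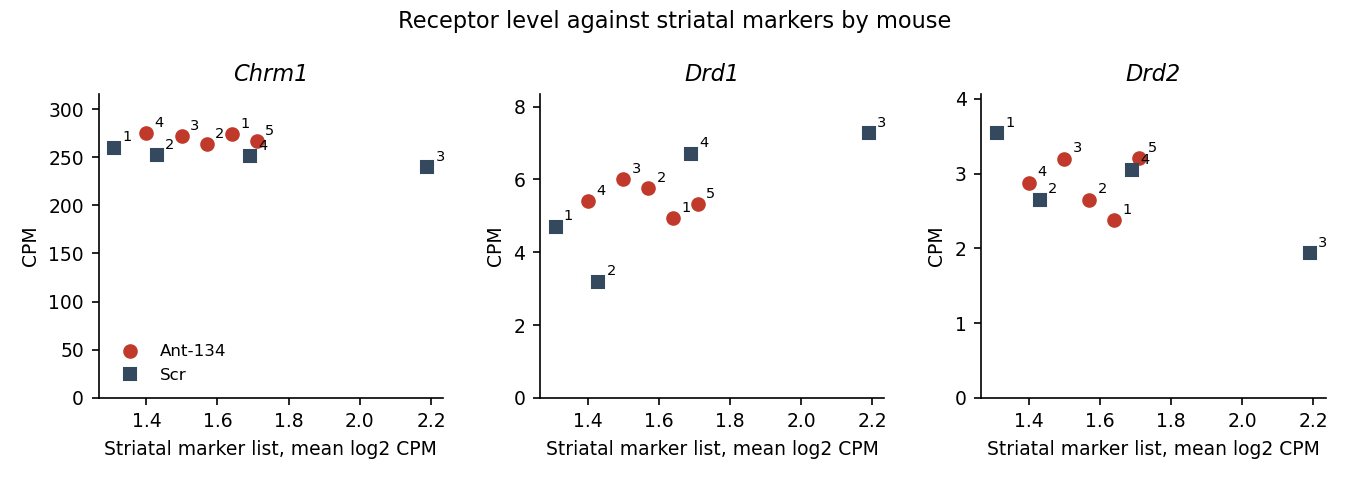
CPM of Chrm1, Drd1 and Drd2 in each mouse against the mean log2 CPM of the 6 striatal markers (circles, Ant-134; squares, Scr; numbers, replicate). Scr replicate 3 lies alone at 2.19, where Chrm1 and Drd2 are lowest and Drd1 is highest.

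The genes whose level followed a receptor most closely over the 9 mice, with group means removed, were searched among 19781 genes. The highest r ranged from 0.96 to 0.98 over the 8 receptors. For Chrm1 these genes were Gm47435 (r = 0.969), Rpgrip1l and Gys1 (r = 0.965 each), and for Drd5 they were Gm26836 (r = 0.96), Gm10778 (r = 0.942) and Emc4 (r = 0.928). For Drd1 they were Reep1 (r = 0.98), Fbxl17 (r = 0.979) and Sfmbt1 (r = 0.978). The leading gene was Rbpj-ps3 for Chrm2 and Cog5 for Chrm3, whereas it was Actr1a for Chrm4, Spry1 for Chrm5 and Gm45311 for Drd2. None of the 24 genes named by this rule was in a list of pathway or marker genes. With 9 mice and this many genes, values of this size are a description only.

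The genes that make, transport and break down the ligands were next examined. Of the transcripts that define cholinergic cell bodies, Chat, which synthesizes acetylcholine, was at or near 0, between 0 and 0.249 CPM. Slc18a3, the vesicular transporter of acetylcholine, lay between 0 and 0.205 CPM. Slc5a7, of the same list, was higher and lay between 0.232 and 0.914 CPM. Ache, which degrades acetylcholine at the synapse, was detected in every mouse, with 85.9, 90.0, 85.9, 83.7 and 90.7 CPM in Ant-134 and 81.6, 86.0, 96.1 and 98.8 CPM in Scr. The groups overlapped for Ache (log2 fold change -0.05, SE 0.0554). Of the 6 acetylcholine genes that were tested, 0 passed the unadjusted threshold, beside 4.18% of all genes tested.

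For dopamine, Th, the rate-limiting enzyme of its synthesis, was between 0.586 and 1.14 CPM. Slc6a3, the dopamine transporter, had 0.244, 0.468, 0.0712, 0.229 and 0.199 CPM in Ant-134 and 0.439, 0.638, 0.323 and 0.351 CPM in Scr, a log2 fold change of -0.81 (SE 0.421) that did not pass (edgeR, unadjusted p = 0.0732). The Slc6a3 value of Ant-134 replicate 3 lay below the floor of 3 counts, which was 0.107 CPM in that library. None of the 11 dopamine genes that were tested passed, beside 4.18% of all genes tested.

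The transducers and effectors of the receptors were examined by the G protein they serve. In the Gs/olf and cyclic AMP list, through which Drd1 and Drd5 act, 0 of 19 genes passed, beside 4.18% of all genes tested. Log2 fold changes in this list ran from -0.04 to 0.094 with 15 above 0. Of all 19782 genes tested, 10133 were above 0. Prkaca, a catalytic subunit of protein kinase A, was among the nearest to the threshold, with means of 241 and 228 CPM (edgeR, unadjusted p = 0.0673). Also without a passing gene were the Gi/o list (9 tested) and the list of arrestins, receptor kinases and RGS proteins (17 tested). Nothing is read from a count of 0 in lists this short, beside 4.18% of all genes tested.

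In the Gq list, through which Chrm1, Chrm3 and Chrm5 act, 2 of 16 genes passed before adjustment and both were lower in Ant-134. Over all genes tested, 2.69% passed with lower values. Plcb2, a phospholipase C that is known from blood and taste cells, had 3.99, 4.24, 3.03, 4.72 and 3.51 CPM in Ant-134 and 5.01, 5.39, 4.96 and 4.57 CPM in Scr (log2 fold change -0.35, SE 0.137, edgeR, unadjusted p = 0.0213). Itpr3, an inositol trisphosphate receptor of the endoplasmic reticulum, had 5.30, 4.76, 5.59, 5.11 and 6.52 CPM in Ant-134 and 6.02, 6.76, 8.18 and 5.68 CPM in Scr (log2 fold change -0.29, SE 0.132, edgeR, unadjusted p = 0.0439). The groups overlapped for both genes. The more abundant members of the same list, Plcb1 (177 and 164 CPM) and Itpr1 (253 and 243 CPM), did not pass.

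Ionotropic receptors for acetylcholine were examined beside the muscarinic ones. Of 11 nicotinic subunits tested, 1 passed before adjustment, beside 4.18% of all genes tested. Chrna3, a subunit of ganglionic and habenular receptors, had 1.89, 1.85, 1.78, 1.51 and 1.32 CPM in Ant-134 and 2.73, 1.87, 2.90 and 1.73 CPM in Scr (log2 fold change -0.46, SE 0.197, edgeR, unadjusted p = 0.0345). Scr replicates 1 and 3 were high and the other 2 Scr mice were among the Ant-134 mice.

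Receptors for other monoamines were used as related families. Of 10 serotonin receptors tested, 2 passed before adjustment, both higher in Ant-134, and of 8 adrenergic receptors 0 passed. Over all genes tested, 1.49% passed with higher values in Ant-134, and 0.647% had higher values without overlap. Nothing is read from a count of 2 in so short a list. Htr1b, a Gi/o-coupled receptor of axon terminals, had 8.47, 7.69, 8.68, 7.79 and 8.93 CPM in Ant-134 and 7.40, 6.22, 7.36 and 7.47 CPM in Scr, without overlap (log2 fold change 0.23, SE 0.0979, edgeR, unadjusted p = 0.0359). Htr5b had 6.83, 6.86, 5.80, 7.79 and 7.81 CPM in Ant-134 and 5.86, 6.29, 5.98 and 5.27 CPM in Scr (log2 fold change 0.26, SE 0.114, edgeR, unadjusted p = 0.0367). Ant-134 replicate 3 was among the Scr mice for Htr5b. The medians over the serotonin and adrenergic receptors were 0.07 and 0.0085.

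Over all the pathway lists, 5 of 107 tested genes passed the unadjusted threshold (4.67%), 2 of them higher and 3 lower in Ant-134, beside 4.18% of all tested genes. The share was thus near the background. After adjustment over all tested genes none of the 5 passed (edgeR, Benjamini-Hochberg adjusted p = 0.998 each). Each of the 5 also lost the unadjusted threshold when single mice were left out: Plcb2 without Ant-134 replicate 3 or Scr replicate 2, and Chrna3 without Ant-134 replicate 4 or 5 or Scr replicate 1 or 3. Htr1b lost it without Ant-134 replicate 1, 3 or 5 or Scr replicate 2. Itpr3 and Htr5b each kept it without 3 of the 9 mice only. Itpr3 did so without Ant-134 replicate 5 or Scr replicate 1 or 4, and Htr5b without Ant-134 replicate 1 or 3 or Scr replicate 2.

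**Figure D5:**
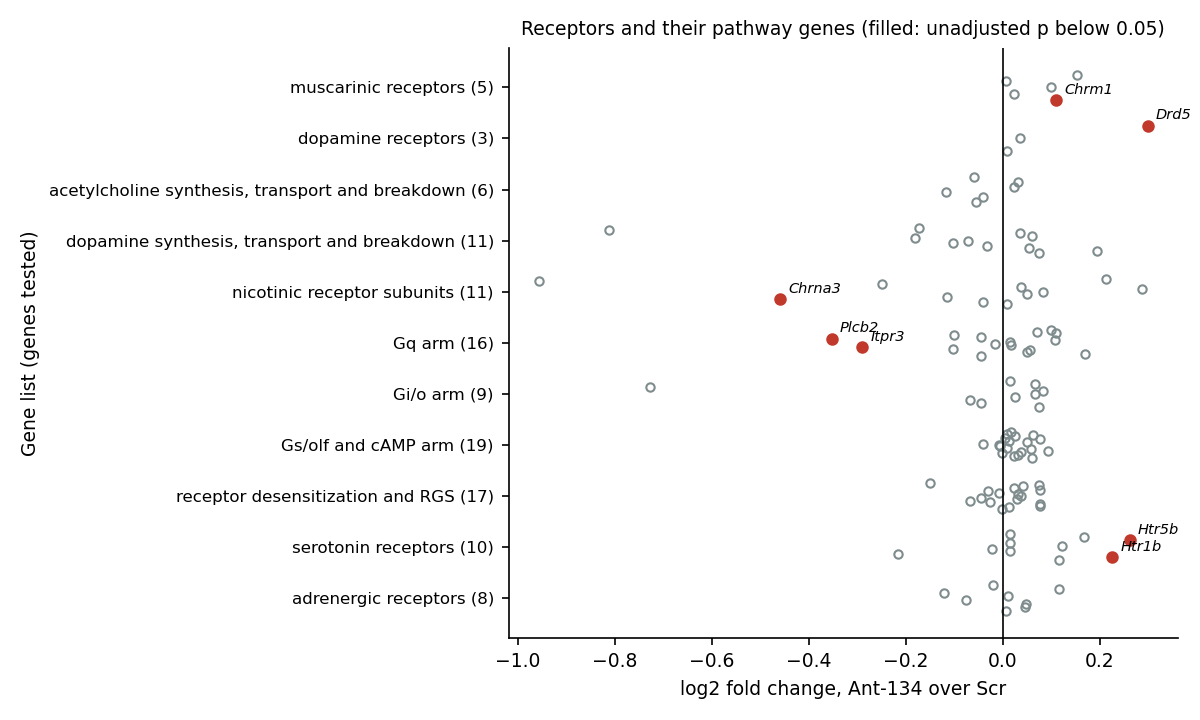
Log2 fold change of Ant-134 over Scr in edgeR for the receptors and for each gene of the pathway lists, with 1 point per gene, filled where the unadjusted p was below 0.05, and the number of tested genes beside each list name. Of the 107 pathway genes 5 are filled, and most of the others lie between -0.2 and 0.2.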

How the data were processed

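RNA-seq of 9 hippocampi was analysed (5 Ant-134, 4 Scr; groups and replicate numbers from the sample labels). Per the labels and the study's methods, the authors called bases with CASAVA 1.8, aligned paired-end reads to mm10 (GRCm38) with HISAT2 2.0.5, and counted them on genes with featureCounts 1.5.0-p3. The annotation release and the strand setting are not given in the sources used here. The authors deposited raw counts and FPKM values, and all columns were used (0 left out). In each library the FPKM equalled the value recomputed from counts, gene length and library total, times 1 constant between 0.978 and 1.01.

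Counts were filtered with filterByExpr (minimum count 10), scaled by TMM and fitted in edgeR 4.0.16 (quasi-likelihood test, robust, no covariate, R 4.3.3), with Benjamini-Hochberg adjustment over 19782 genes. The study's threshold, an unadjusted p below 0.05, defined counts of genes. CPM are TMM-scaled. The fit was tested on simulated data. Levels of the receptors were compared on FPKM with a pseudocount of 0.01, and correlations with exact permutation tests (scipy 1.17.1). Where group means had been removed, the centred values of both groups were permuted together, which makes those p values approximate. Positions and 3' UTRs came from GENCODE M21, whose positions of all 10 receptors equal those in the tables.

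The genes named are the receptors, every gene of a pathway or marker list with an unadjusted p below 0.05, the 3 genes most correlated with each receptor that passed the filter, Ube3a and Mirg. Other genes of the lists are given as examples chosen after their values were seen. The receptors, lists and tests were chosen with earlier results of these data known. The results were recomputed with DESeq2 1.42.0 on unfiltered counts, with its size factors in edgeR, with no filter or a minimum of 10 counts in each library, and with the robust step left out. Other fits had a block for the replicate number or a term for the level of Y-linked genes, or used limma 3.58.1 on FPKM (pseudocount 1 or 0.1, mean FPKM 0.1 or more). Further alternatives were other pseudocounts and scalings of the levels, uncentred correlations, and leaving out each mouse in turn. A gene length without bases shared with other genes was added after the data had been seen. Libraries of a group differed by more than counting noise (chi-square per gene between 7.56 and 19.0). Reads copied by PCR were not marked, so intervals and floors from counts cover counting error only.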

Additional observations from a re-analysis of the deposited data

Results flagged for a closer look

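Summed levels of marker lists and the levels of the receptors were screened in 40 groups of mice for a single mouse far from the rest of its group, with a rule that chance meets in about 1 of 20 groups. The screen found 2 mice where chance gives 2, and neither was a receptor value. The thalamus markers summed to 193 CPM in Ant-134 replicate 3 and to between 122 and 126 CPM in the other Ant-134 mice. The choroid plexus markers summed to 2600 CPM in Ant-134 replicate 1 and to between 70.3 and 687 CPM in the other Ant-134 mice. In Scr they summed to between 82.8 and 2040 CPM, with the highest value in Scr replicate 3. Without Ant-134 replicate 3 the log2 fold change of Chrm3 was 0.037.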

How the results depend on the processing

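Across the 18 alternatives the log2 fold change lay between 0.089 and 0.12 for Chrm1 and between 0.22 and 0.36 for Drd5. Both genes were chosen on this contrast, so these ranges are no support for a difference. Leaving out 1 mouse gave 1 to 2 receptors higher, 194 to 386 genes higher (194 without Scr replicate 3) and 435 to 704 lower, and 0 to 17 after adjustment (17 without Ant-134 replicate 1). Main values were 294 higher, 533 lower and 0 after adjustment. Without a filter these were 564, 1211 and 14, limma called 462 higher on log2(FPKM + 1) and 475 on log2(FPKM + 0.1), and DESeq2 called 16 after adjustment. Of the pathway genes, 2 higher and 3 lower in the main fit, DESeq2 called 4 higher, the Y-linked covariate left 1 higher, limma called 5 higher and 1 lower with each pseudocount, and leaving out 1 mouse gave 1 to 3 higher and 1 to 5 lower. The number of neighbouring levels that differed was 4 to 6 without 1 mouse. Uncentred, 0 receptors were correlated with the striatal markers, and leaving out 1 mouse gave 0 to 1. The step from Chrm5 to Chrm2 turned to -0.0255 with unshared lengths and ran from -0.10 to 0.087 without 1 mouse, and that from Chrm2 to Drd2 ran from -0.0371 to 0.13. With a pseudocount of 0.1 the step from Drd2 to Drd4 was 2.79 and that from Drd4 to Drd3 was 0.26. The causes of the other shifts were not tested.

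The replicate number as a block gave 2 genes after adjustment, 7 pathway genes higher and 1 lower. Deviations of mice with the same number correlated at -0.115, -0.0701, -0.0221 and 0.012. Those of Ant-134 and Scr mice with different numbers, among replicates 1 to 4, correlated at between -0.222 and 0.24. Whether mice with the same number shared anything else, such as a litter, cannot be told from so few pairs. Under the block the log2 fold change was 0.12 for Chrm1 and 0.31 for Drd5. Depth limits Drd3 and Drd4, which had at most 16 counts in a library.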

Other observations

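The marker lists were described beside the receptors. Of the 8 dentate granule cell markers 1 passed the unadjusted threshold, Dsp, which encodes a desmosome protein. Over all genes tested, 4.18% passed it. Dsp had 45.7, 45.2, 54.8, 43.2 and 46.8 CPM in Ant-134 and 40.2, 45.8, 41.4 and 39.4 CPM in Scr (log2 fold change 0.18, SE 0.0693, edgeR, unadjusted p = 0.023, adjusted p = 0.998), and Scr replicate 2 lay among the Ant-134 mice. In the lists of pyramidal neurons (10 tested), hilar mossy cells (6), interneurons (8), striatal projection neurons (6), cholinergic neurons (1), dopamine neurons (4), thalamus (8) and choroid plexus (8), 0 genes passed. Interneuron markers summed to between 697 and 837 CPM in Ant-134 and between 698 and 819 CPM in Scr, and mossy cell markers to between 134 and 181 and between 142 and 165 CPM. Of the 7 listed markers of dopamine neurons, En1, Foxa1 and Pitx3 were at most 0.118 CPM in any mouse. Ddc lay between 8.43 and 13.8 CPM and Slc18a2 between 8.77 and 9.76 CPM. Th lay between 0.586 and 1.14 CPM and Slc6a3 between 0.0712 and 0.638 CPM.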
